A study of Mus musculus with 6 samples.

Results

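The microarray used here to profile mouse kidney carries 9055 probes whose only listed name is an Ensembl transcript identifier, out of 56605 non-control probes. They were chosen by that name alone, with no measured value involved, and they represent 8761 transcripts. Probes named by a RefSeq messenger RNA accession, 30479 in all, are the comparison set. The names are those of the array's design, so a transcript counted here may have a RefSeq record today. The files do not pair these identifiers with gene names, and 0 of them could be matched to a name in the tables used here, so members are described by their values and, for a few, by identifier.

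RNA came from whole kidneys of mice killed at 32 weeks of age, on a C57BL/6J background. Pck1-CKO mice carried Pck1 flox/flox together with the γGT-Cre transgene (tg/+), which deletes Pck1 in the renal proximal tubule. Pck1 encodes the cytosolic phosphoenolpyruvate carboxykinase of gluconeogenesis. The WT mice were their littermates, of the same age and sex. The crosses gave several kinds of control, namely Pck1 flox/+ with γGT-Cre tg/+, Pck1 flox/+ without it, and Pck1 flox/flox without it. The labels do not say which of them each WT array holds, so floxed alleles or Cre may be present in WT. There were 3 arrays a group, and p-values measure the spread between these arrays, since nothing in the labels says that each array is 1 mouse.

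Ensembl and RefSeq are separate annotations of the same genome. RefSeq messenger RNA records are largely curated protein-coding transcripts, whereas Ensembl also lists many non-coding RNAs, pseudogene transcripts, retained-intron forms, alternative isoforms of known genes, and the separate gene segments of antigen receptor loci. An array probe that bears only an Ensembl identifier can therefore report any of these, and a probe for an isoform may share exons with a RefSeq probe of the same gene.

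Levels are log2 processed signals relative to the 75th percentile of each array, so a level of 0 is that percentile. A change is Pck1-CKO minus WT, with its standard error (SE). A call is an adjusted p under 0.05 from limma with Benjamini-Hochberg adjustment over all 38366 probes tested. The 75th percentile signal was between 529 and 583 units on the 6 arrays, no spot was saturated, and all kidney markers were well above background. The Pck1 probe itself read 6.29, 6.32 and 5.63 on the WT arrays and 6.44, 6.60 and 6.90 on the Pck1-CKO arrays, a change of 0.56 ± 0.22 (SE, n = 3 a group, limma adjusted p = 0.174). It was not lower on the arrays labelled Pck1-CKO, and the labels do not give the probe's position relative to the floxed exons, so it checks nothing on its own. WT arrays filled slide row 1 and Pck1-CKO arrays row 2, so row and genotype cannot be told apart.

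Most Ensembl-only transcripts gave a measurable signal in kidney. Between 63.6% and 67.3% of the members were well above background on each array, against 76.3% to 78.5% of RefSeq messenger RNA probes. Of the 9055 members, 5473 were above background on all 6 arrays, 1044 on 1 to 5 arrays and 2538 on none. The 6030 members above background on at least 3 arrays passed the filter, and 6029 of them, for 5870 transcripts, had a value on every array and were tested. Of these, 15 were above background on the WT arrays alone and 16 on the Pck1-CKO arrays alone.

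Ensembl-only transcripts were called lower in Pck1-CKO kidney more often than higher. In all, 67 members rose, which is 1.11% of those tested, against 1.73% of all probes. A further 224 members fell, 3.72% against 2.56% of all probes. Together 4.83% were called, near the 4.29% of all probes, so the share called was close to the background. The split between directions differed from that of RefSeq messenger RNA probes, which had 502 rises and 460 falls. It was not particular to the members. RefSeq non-coding probes had 20 rises (1.52%) and 50 falls (3.79%). Predicted RefSeq probes had 16 (1.82%) and 26 (2.96%), and intergenic probes 18 (0.69%) and 101 (3.84%). By quantile normalization 76 members rose and 144 fell, which moved the rises from 23.0% to 34.5% of the calls.

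The counts depended on single arrays. Without WT 1 there were 3 rises and 2 falls, without WT 2 there were 0 of each (337 and 954 at an unadjusted p under 0.05), without Pck1-CKO 1 there were 0 rises (330 unadjusted) and 2 falls, and without Pck1-CKO 2 there were 0 of each (288 and 917 unadjusted). Without WT 3 the counts were 53 and 162, and without Pck1-CKO 3 they were 69 and 184. Calls over all probes fell in the same fits, from 1647 to 33 without WT 1 and 0 without WT 2. They were 22 without Pck1-CKO 1, 3 without Pck1-CKO 2, 1023 without WT 3 and 1612 without Pck1-CKO 3. The dependence was thus not particular to the members. All 291 called members kept their direction in each of these 6 fits. That was fixed in advance, since leaving out 1 array cannot reverse groups that do not overlap.

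Negative changes also prevailed over all tested members, called or not. The median change over the 6029 tested members was -0.074, against -0.021 over all probes and 0.011 over RefSeq messenger RNA probes. A negative change was measured in 3912 members, or 64.9%, compared with 47.3% of RefSeq messenger RNA probes. At an unadjusted p under 0.05, which 27.4% of all probes reached, 413 members were higher and 1244 lower. The Pck1-CKO arrays lay wholly above the WT arrays for 8.51% of members, against 16.2% of all probes, and wholly below them for 24.8%, against 18.7%.

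The shift was small. The median level of the members was -2.30, -2.31 and -2.34 on WT arrays 1 to 3 and -2.37, -2.40 and -2.41 on Pck1-CKO arrays 1 to 3. The groups did not overlap, but the median also fell from array 1 to array 3 within each group, which is the order of slide columns. WT 3 lay closer to Pck1-CKO 1 than to WT 1, so the gap between the nearest arrays of the groups was smaller than the drift within WT. At each slide column, however, the Pck1-CKO array lay further below its WT counterpart than WT 3 lay below WT 1. The RefSeq messenger RNA median lay between -0.19 and -0.17 on all 6 arrays. The difference between the members' median change and that of RefSeq messenger RNA probes was -0.086, and stayed between -0.099 and -0.057 under every alternative tried.

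Other classes of probe outside curated messenger RNA leaned the same way. The median change was -0.086 over 1320 RefSeq non-coding probes, -0.105 over 878 predicted RefSeq probes and -0.106 over 2627 probes for intergenic regions. A negative median was thus found in each of these classes as well as in the Ensembl-only members.

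Medians differed with signal level, which depends on the probe as well as on the transcript. Among probes with a mean level up to -4, the median change was -0.135 for 1500 members and -0.106 for 2773 RefSeq messenger RNA probes. Between -4 and -2 it was -0.099 for 1844 members and -0.054 for 4305 messenger RNA probes. Between -2 and 0 it was -0.076 for 1339 members and -0.003 for 5266 messenger RNA probes. The members' median came nearest to 0 between 0 and 2, at -0.013 for 593 members against 0.038 for 5495 messenger RNA probes. Above 2 it was -0.052 for 753 members and 0.041 for 5928 messenger RNA probes. The members' median was the lower of the pair in each of the 5 level ranges, although the quartile ranges overlapped in all of them.

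**Figure D1:**
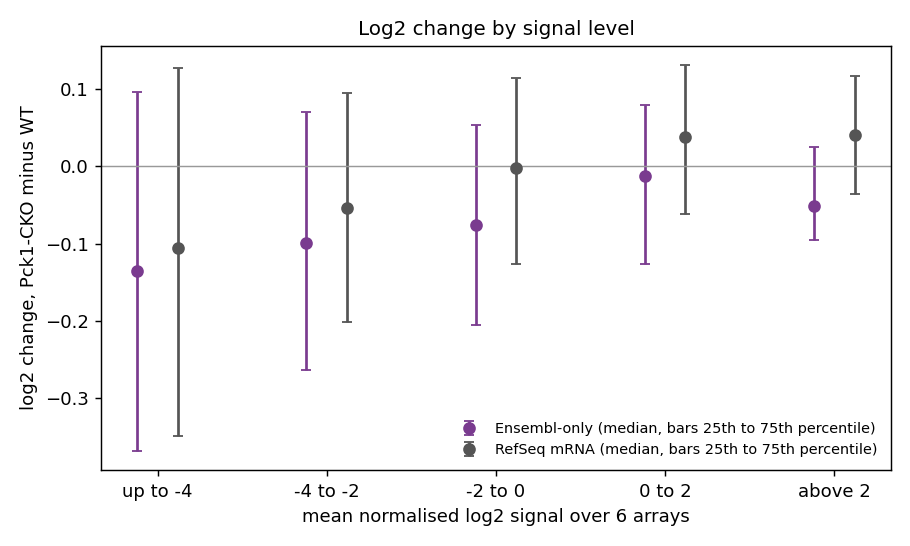
Log2 change (Pck1-CKO minus WT, vertical axis) in 5 ranges of mean normalised log2 signal (horizontal axis) for Ensembl-only probes and RefSeq messenger RNA probes; points are medians over probes and bars span the 25th to 75th percentile. The Ensembl-only median lies below the messenger RNA median in each range, from -0.135 against -0.106 in the dimmest to -0.052 against 0.041 in the brightest, and the bars overlap.

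A group of 135 members is printed on 10 spots each, so each value averages up to that many spots. Their spots differed by a median SD of 0.032 to 0.038 within an array, and their arrays by a median SD of 0.039 among WT and 0.029 among Pck1-CKO. The median change of these members was -0.064, and 111 of the 135 changes were negative. None was called by limma, and 14 had an unadjusted p under 0.05, of which 13 were lower. The lowest of those p-values belonged to a member at 5.40, 5.33 and 5.34 on WT arrays against 5.23, 5.15 and 5.20 on Pck1-CKO arrays, a change of -0.17 ± 0.05 (SE, limma adjusted p = 0.105). RefSeq messenger RNA probes printed on 10 spots, 125 tested, had a median change of -0.050, a smaller distance from the members than the one over all probes. Of these 125, 88 changes were negative, 2 were called higher and 1 lower. By limma 33 of them had an unadjusted p under 0.05, of which 19 were lower. Among all probes 27.4% reached that p, so the 14 members were not an excess.

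Among called members the changes were mostly below 2-fold. The median size was 0.58 on the log2 scale for the 67 rises and 0.52 for the 224 falls. A 2-fold change or more was measured in 17 of the rises and 20 of the falls. The groups did not overlap for any called member. Signals were well above background on all 6 arrays for 60 of the rises and 211 of the falls, while 3 rises had no WT array and 10 falls no Pck1-CKO array above background.

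**Figure D2:**
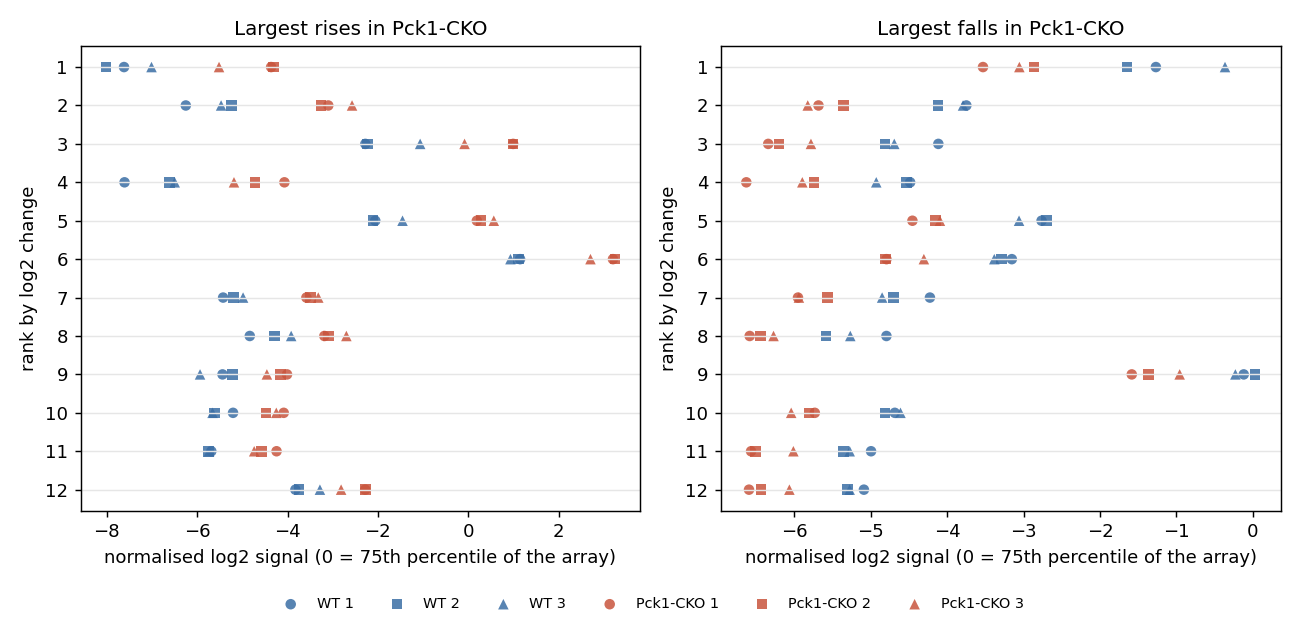
Normalised log2 signal (horizontal axis) of the 12 called Ensembl-only probes with the largest rise (left) and the 12 with the largest fall (right), ranked by log2 change (vertical axis); each point is 1 array, coloured by genotype and shaped by replicate number. The WT and Pck1-CKO points are separate in every row.

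Among called members well above background on all 6 arrays, the transcript ENSMUST00000225278.1 had the largest rise. Its probe read -2.28, -2.23 and -1.06 on WT arrays against 0.996, 0.994 and -0.08 on Pck1-CKO arrays. WT 3 was high for its group and Pck1-CKO 3 low for its own, leaving a gap of under 1 between them. The change was 2.49 ± 0.45 (SE, 5.63-fold, n = 3 a group, limma adjusted p = 0.0460).

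ENSMUST00000135352.1 rose more evenly. Its levels were -2.06, -2.11 and -1.45 on WT arrays against 0.19, 0.28 and 0.57 on Pck1-CKO arrays, so all Pck1-CKO arrays stood well clear of WT 3. The change was 2.22 ± 0.20 (SE, 4.66-fold, limma adjusted p = 0.0194). The next rise among called members above background on all arrays had the smallest scatter of the 3, with 1.15, 1.11 and 0.94 on WT arrays against 3.21, 3.25 and 2.71 on Pck1-CKO arrays. That member, left without an identifier here, rose by 1.99 ± 0.16 (SE, 3.96-fold, limma adjusted p = 0.0164).

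ENSMUST00000110971.2 had the largest fall among called members. Its levels were -1.27, -1.64 and -0.36 on WT arrays against -3.53, -2.87 and -3.06 on Pck1-CKO arrays. WT 3 was the highest array, and the lowest WT array was still above every Pck1-CKO array. The change was -2.06 ± 0.36 (SE, limma adjusted p = 0.0437), a 4.17-fold lower signal.

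ENSMUST00000103387.2 fell from -3.75, -4.12 and -3.79 in WT to -5.69, -5.36 and -5.83 in Pck1-CKO. The 3 arrays of each group lay close together. The change was -1.73 ± 0.16 (SE, limma adjusted p = 0.0188), a 3.33-fold lower signal. After normexp background correction the same member changed by -0.62, with an adjusted p of 0.00788, so the size of this low-level change depended on how background was handled. None of these 5 members stayed below an adjusted p of 0.05 in all fits that left out 1 array: without WT 2 or without Pck1-CKO 2 no member was called.

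Several of the other members with large called changes were near background in 1 group. The largest fitted rise among called members, 2.82 ± 0.41 (SE, limma adjusted p = 0.0358), belonged to a member that was dim on every WT array, none of them well above background, at -7.62, -8.02 and -7.01, against -4.36, -4.31 and -5.52 in Pck1-CKO. Only a bound can be given for such a probe, computed against the higher of its own signal and the lowest signal well above background on each array, and here it was at least 1.95-fold higher in Pck1-CKO. The fitted value is therefore not exact, and with normexp it was 0.33. Members above background in 1 group alone passed the filter only through the group where they are high, so their direction was fixed by it. Their bounds reached at least 2.35-fold lower in Pck1-CKO for those seen in WT alone and at least 3.21-fold higher for those seen in Pck1-CKO alone. The member with the 3.21-fold bound was not called (limma adjusted p = 0.115), with -3.31 and -3.38 on Pck1-CKO 1 and 2 but -5.28 on Pck1-CKO 3.

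Several transcripts have more than 1 probe, which checks a change with a second sequence in the same RNA. Of 156 transcripts with at least 2 tested probes, 120 had probes that changed in the same direction, 79 of them all down and 41 all up. Their probes differed by a median of 0.109 in log2 change. In 7 of these transcripts at least 1 probe was called, all of them lower, and the second probe had the same sign in all 7. In the transcript with both probes called, the changes were -0.38 ± 0.05 and -0.42 ± 0.06 (SE, limma adjusted p = 0.0309 and 0.0310). In another, the first probe fell by 1.23 ± 0.19 (SE, adjusted p = 0.0397) while the second was at -0.63 ± 0.17 without passing the threshold (adjusted p = 0.0928).

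The members were also divided by the number in their identifier, without a test of the difference. Ensembl numbers its transcripts as they are added, so a low number broadly marks an early annotation. The 617 tested members numbered below 100000 had a median change of -0.033 and a median level of -1.15, with 10 called higher (1.62%) and 18 lower (2.92%). The 5412 members numbered from 100000 upward had a median change of -0.080 and a median level of -2.46, with 57 called higher (1.05%) and 206 lower (3.81%), beside 1.73% and 2.56% of all probes. The classes thus differed in signal level as well as in number, and the part of the level was not tested.

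A run of neighbouring transcript numbers moved together from array to array in an order that crossed the genotypes. The run, 103303 to 103552, is the largest set of numbers at most 50 apart among members in which WT 3 lay at least 1 above both other WT arrays. It was picked after the values were seen and by WT 3, so its values are a description. With all members between these numbers it holds 114 probes for 106 transcripts, of which 79 probes for 73 transcripts were tested and 35 were not. The median level of the tested members was -4.14, -4.32 and -3.24 on WT 1 to 3 and -2.93, -3.14 and -3.79 on Pck1-CKO 1 to 3. WT 3 was thus high for its group and Pck1-CKO 3 low for its own.

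The pattern was shared by most of the run. WT 3 was the highest WT array in 73 of the 79 members and Pck1-CKO 3 the lowest Pck1-CKO array in 72, both at once in 67. WT 3 stood above the higher of the other WT arrays by a median of 1.05, and Pck1-CKO 3 stood below the lower of the other Pck1-CKO arrays by a median of 0.91. The median change between genotypes was 0.75, with 66 members positive, 23 of them by 2-fold or more, yet none was called higher (12 of the 79 had an unadjusted p under 0.05 in either direction). The median SE was 0.49 in the run and 0.095 over all tested members. With normexp background correction the median change of the run was 0.21.

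A transcript in the run with 2 tested probes shows the pattern at high signal. The first probe read 2.60, 2.26 and 3.73 on the WT arrays against 4.23, 3.89 and 2.98 on the Pck1-CKO arrays. The second read 2.09, 1.79 and 3.42 on the WT arrays against 3.90, 3.53 and 2.61. Both probes put WT 3 above Pck1-CKO 3. Their changes were 0.84 ± 0.48 and 0.91 ± 0.52 (SE, limma adjusted p = 0.314 and 0.311). The only called member of the run was ENSMUST00000103387.2, described above, which fell on all 3 Pck1-CKO arrays and did not share the order of its neighbours.

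The plasma cell markers Jchain and Mzb1 also had WT 3 as the highest WT array, Pck1-CKO 3 as the lowest Pck1-CKO array, and WT 3 above Pck1-CKO 3. Jchain, the joining chain of secreted polymeric antibodies, read 0.40, 0.13 and 1.73 on WT arrays against 2.02, 1.69 and 0.64 on Pck1-CKO arrays. Mzb1, a chaperone of antibody-secreting cells, read -2.27, -2.32 and -1.65 on WT arrays against -1.55, -1.55 and -1.80 on Pck1-CKO arrays. Over the list of 8 B and plasma cell markers, 7 were on the array and 6 were tested, with 0 called higher and 1 lower, the B cell receptor component Cd79b. The list's summed level on the linear scale was 2.47, 2.26 and 4.63 on WT arrays against 5.07, 4.24 and 2.63 on Pck1-CKO arrays, and none of them was at background on every array. In whole kidney, fewer cells of a type and less RNA per cell cannot be told apart, and the part of these cells in the members' values was not tested.

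**Figure D3:**
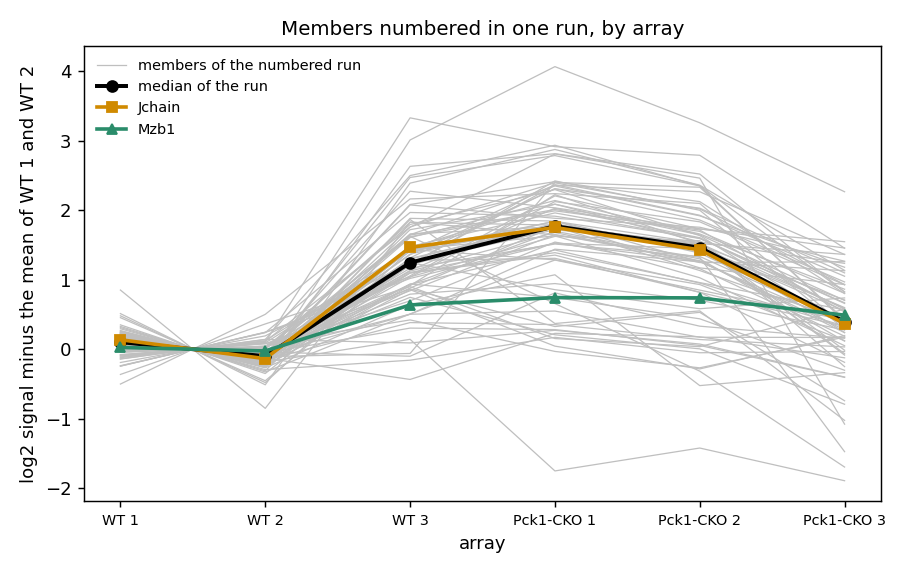
Log2 signal minus the mean of WT 1 and WT 2 (vertical axis) on each of the 6 arrays (horizontal axis) for the 79 tested members numbered 103303 to 103552 (grey), their median (black) and the plasma cell markers Jchain and Mzb1. The median rises to 1.24 on WT 3, 1.77 and 1.46 on Pck1-CKO 1 and 2 and is 0.39 on Pck1-CKO 3, and the Jchain line runs close to it.

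Members in which 1 array stood apart were counted for each array. WT 3 lay at least 1 above both other WT arrays in 73 of the 6029 tested members. Of these 73, 43 belonged to the run, which was itself defined from them. No other array stood that far above its group in more than 13 members. Pck1-CKO 3 lay at least 1 below both other Pck1-CKO arrays in 58 members, compared with 11 for Pck1-CKO 1 and 17 for Pck1-CKO 2. Among 23767 RefSeq messenger RNA probes, 51 had WT 3 above and 76 had Pck1-CKO 3 below by the same measure.

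A small set of members were at background on Pck1-CKO 1 and 2 and not on Pck1-CKO 3. The set was chosen after the values were seen, as members above background in WT, at least 1.5 below every WT array on Pck1-CKO 1 and 2, and at least 1 higher than these on Pck1-CKO 3, and it holds 3 probes. In the first, WT read 2.35, 2.41 and 3.07, Pck1-CKO 1 and 2 read -8.02 and -7.41, and Pck1-CKO 3 read 1.96. Pck1-CKO 3 was 0.65 below the WT mean.

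Its fitted change was -7.10 ± 2.69 (SE, limma adjusted p = 0.163), which was not called. Since 2 of its 3 Pck1-CKO arrays were not well above background, the size of that change is not exact. The second probe read -4.37, -4.47 and -4.09 on WT arrays against -7.86, -7.88 and -5.23 on Pck1-CKO arrays, and the other one -3.21, -3.44 and -3.21 on WT arrays against -6.01, -5.96 and -3.91 on Pck1-CKO arrays. All 3 were not well above background on Pck1-CKO 1 and 2 and were above it on the other 4 arrays.

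RefSeq probes with this array order, also picked after their values were seen, include the following. A probe for Zfp874a, a zinc finger gene, read -0.02, -0.07 and 0.01 on WT arrays against -8.03, -8.06 and -0.83 on Pck1-CKO arrays. A probe for Ctsl, the lysosomal protease cathepsin L, read -0.15, -0.30 and -0.23 on WT arrays against -6.61, -6.31 and -1.23 on Pck1-CKO arrays. The other Ctsl probe had the same array order over a smaller range, at 6.30, 6.35 and 6.39 on WT arrays against 5.68, 5.71 and 6.14 on Pck1-CKO arrays (change -0.50 ± 0.13, SE, limma adjusted p = 0.0837).

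**Figure D4:**
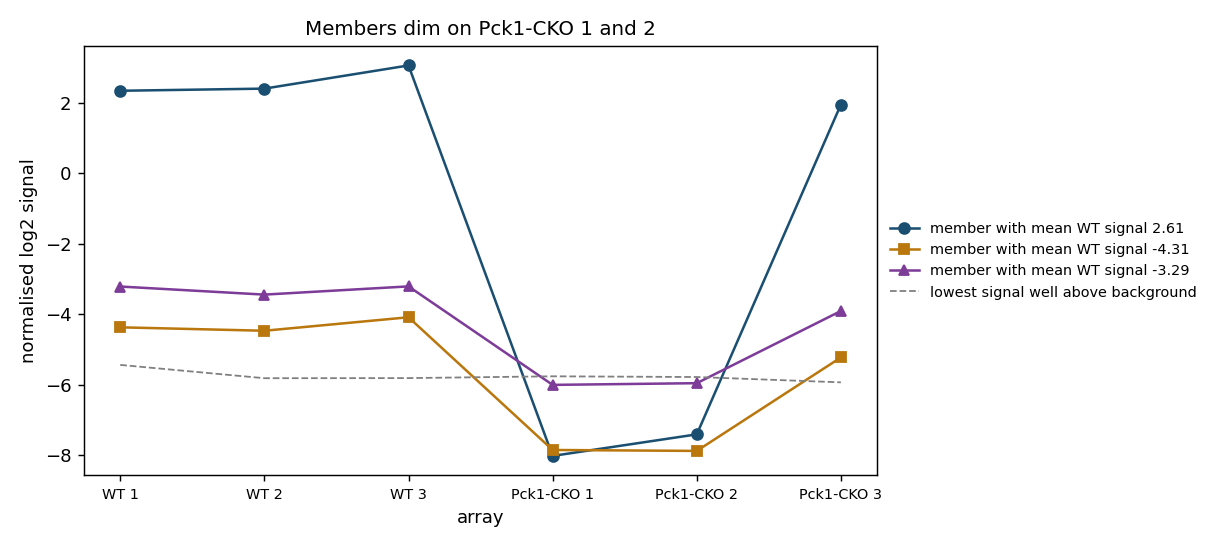
Normalised log2 signal (vertical axis) on each array (horizontal axis) of the 3 Ensembl-only probes that were dim on Pck1-CKO 1 and 2; the dashed line is the lowest signal well above background on each array. All 3 lie under the dashed line on Pck1-CKO 1 and 2 and above it on the other arrays, with Pck1-CKO 3 between 0.62 and 0.92 below the WT mean.

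Differences of 2-fold or more that missed the threshold were counted over all tested members. A change of 2-fold or more without a call was measured in 45 members on the higher side and 19 on the lower side. The 45 include 23 members of the numbered run, and the 19 include the 3 probes dim on Pck1-CKO 1 and 2. Their median SE was 0.52 and 0.53, compared with 0.085 and 0.076 for the called rises and falls. A large change stays uncalled only where its SE is large, and most called changes were below 2-fold, so this contrast follows from the selection. The groups did not overlap in 19 of the 45 and in 13 of the 19. Over all probes, with no condition on size, Pck1-CKO lay wholly above WT in 16.2% and wholly below in 18.7%. A large change favours separate groups, so these counts are a description.

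Fat cell markers differed between the groups, and these values stand beside the rises above. Of 8 brown and white adipocyte markers, 4 were called higher. Over all 8 the median change was 3.11. The summed linear level of the 8 was 13.6, 22.1 and 21.6 on WT arrays against 70.6, 68.7 and 91.0 on Pck1-CKO arrays. Fabp4 had the highest level of the list on every array, so it weighed most in these sums. Lep changed by only 0.04 ± 0.09 (SE, limma adjusted p = 0.826). Adipoq, the adipokine adiponectin, read -2.96, -0.03 and -0.70 in WT, with WT 1 more than 1 below the others, and 1.42, 1.20 and 2.52 in Pck1-CKO. The part of fat cell RNA in the members' rises was not tested. The red cell markers, 3 tested and 0 called, had summed levels of 227, 275 and 216 on WT arrays against 277, 294 and 352 on Pck1-CKO arrays, wholly higher in Pck1-CKO, with a median change of 0.41, and their part in the members' values was not tested. T cell and adrenal lists had no marker called, with summed levels of 2.31 to 2.90 and 2.16 to 2.91 over the 6 arrays, and the adrenal genes Cyp11b1 and Cyp11a1 were above background on no array.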

How the data were processed

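The authors' deposited scanner files hold linear intensity values; the file headers name Agilent Feature Extraction 10.7.1.1, whose processed signal is background-subtracted and detrended. The deposited value table is a linear ratio, each probe's signal over 1 factor per array, and was used as an alternative. The deposited spot flags for outliers and background were applied as the authors' software set them.

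Log2 signals of unflagged spots were averaged per probe and each array's 75th percentile was subtracted. Probes well above background (at least 50% of spots) on at least 3 of 6 arrays were tested with limma 3.58.1 in R 4.3.3 (lmFit, eBayes, 2-sided, no covariates, Benjamini-Hochberg). The code was tested on simulated data. The number of arrays limits the precision.

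Members and lists were chosen with earlier results of these data known. The naming rule took the 12 largest called changes in each direction and up to 5 members above background in 1 group alone; its parts based on gene names could not be applied, since the files hold none. The 4 transcripts printed by identifier were chosen from these after their values were seen, as those with the largest called changes above background on all arrays. Marker probes were named by RefSeq accession (GRCm38.p6); the arrays' design uses another build, so no coordinates are given. Normexp used the median signals. The alternatives stand in the closing section.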

Additional observations from a re-analysis of the deposited data

How the results depend on the processing

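The members' count of falls was 144 after quantile normalization, 402 with normexp (offset 50), 344 among members above background on all arrays, 514 with a trended and robust prior, and 932 with array weights. The count of rises was 105, 166 and 328 with normexp, the trended prior and array weights. Without a filter there were 4 rises and 7 falls. Leaving out 1 array gave 0 to 69 rises and 0 to 184 falls. The median change of the members was -0.043 after quantile normalization, -0.113 with the percentile taken over probes above background on all arrays, and -0.112 without a filter; these scalings moved the median of all probes to -0.003, -0.059 and -0.070. Over 10-spot members it was -0.10 with that percentile. The fit with the replicate number as a block called 0 rises and 0 falls (409 and 1294 at an unadjusted p under 0.05), and 0 of all probes. Deviations of same-numbered arrays correlated at 0.045, -0.062 and -0.031, so no strong shared deviation was seen. With 3 arrays a group this does not exclude that the numbers pair the samples. With the deposited value table the counts were 67 and 221. The cause of these differences was not tested. No called member changed direction under any alternative. For the fits that left out 1 array this was fixed in advance, since the groups of called members did not overlap. Of the 24 members with the largest called changes, 17 stayed past the threshold with normexp, 19 with quantile normalization and 4 without a filter. With 3 arrays a group, dim probes near background are the least certain.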

Other observations

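A transcript with 2 tested probes had the lowest and the highest array in common with Adipoq. Its first probe read -5.09, -2.91 and -3.25 on WT arrays against -2.07, -2.20 and -0.88 on Pck1-CKO arrays. Its second probe read -3.91, -2.13 and -2.59 on WT arrays against -1.58, -1.70 and -0.34 on Pck1-CKO arrays. On both, WT 1 was the lowest array and Pck1-CKO 3 the highest. The changes were 2.03 ± 0.66 and 1.67 ± 0.57 (SE, limma adjusted p = 0.124 and 0.136), and 1.37 and 1.16 without WT 1.

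An uncalled member was high on Pck1-CKO 1 and 2 alone. It read -4.95, -5.16 and -4.69 in WT, -2.29 and -2.71 on Pck1-CKO 1 and 2, and -4.74 on Pck1-CKO 3, within the WT range. Its change was 1.69 ± 0.64 (SE, limma adjusted p = 0.162). These members were singled out after their values were seen.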
